A study of Mus musculus with 6 samples.

Results

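The genes described here are the mouse *Zfp* genes, named for the zinc fingers of their proteins, that were counted in all 6 libraries of a T cell culture experiment. They were chosen by symbol (*Zfp* followed by digits), by protein-coding type and by a minimum of 100 counts in every library. Of 394 protein-coding *Zfp* genes in a table of 56748 genes, 214 met this rule and are called the members. The members were thus selected on their counts in the same libraries that are compared below, and that they are expressed is not a result. Of the other *Zfp* genes, 23 were listed at 0 throughout.

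The study cultured CD4 T cells, the helper cells from which regulatory T cells (Tregs) arise, with antisense oligonucleotides (ASOs), synthetic strands that pair with an RNA of matching sequence. Naive cells came from spleen and lymph nodes of wild-type (WT) C57BL/6J mice aged 6 to 10 weeks, by negative selection. All cultures received Treg polarizing conditions: IL-2 at 10 ng/mL, TGF-β at 1 ng/mL, antibodies to IFNγ and IL-4 at 5 μg/mL, plate-bound antibody to CD3 at 2 μg/mL and soluble antibody to CD28 at 2 μg/mL. The ASO, either Scramble or directed at *Pgam* (phosphoglycerate mutase, an enzyme of glycolysis), was present at 10 μM from the start for 72 hr, given as 3 days in the labels. RNA was taken from unsorted cells, and the ASO sequences are proprietary, so neither the share of Tregs nor the match of the ASO to any *Zfp* transcript can be read from the data.

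The comparison asks which *Zfp* transcripts differ between cultures with the *Pgam* ASO and with the Scramble ASO. Each label has 3 libraries. Their total counts were 17588755, 18032805 and 16231127 in Scramble replicates 1, 2 and 3, and 16589933, 15860476 and 16803881 in ASO replicates 1, 2 and 3. Expression is given as CPM, counts per 1000000 after edgeR's TMM scaling, and every fold change is that of the libraries labelled ASO over those labelled Scramble, on the log2 scale with its standard error (SE) and 3 libraries a label. A gene is called higher or lower where edgeR's quasi-likelihood test gave a Benjamini-Hochberg adjusted p under 0.05 over the 14936 genes tested. The study calls the libraries biological replicates, and neither it nor the labels say whether these are separate animals or cultures of pooled cells. The p-values therefore measure only the spread between the libraries at hand.

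Most proteins of this family carry C2H2 zinc fingers, short loops in which paired cysteines and histidines hold a zinc ion and which, set in a row, read DNA. Many also carry a KRAB domain, which recruits the corepressor TRIM28 and through it enzymes that lay down repressive chromatin, above all at retroelements and imprinted genes. These KRAB genes lie in clusters of close relatives that arose by duplication. A few genes named *Zfp* encode other kinds of protein, among them CCCH zinc finger proteins that bind RNA and speed the decay of cytokine mRNAs in activated lymphocytes.

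The labels were checked against the counts first. *Pgam1*, the main target gene by name, stood at 600, 478 and 707 CPM in Scramble replicates 1 to 3 and at 658, 661 and 707 CPM in ASO replicates 1 to 3. The labels overlapped, and the log2 fold change was 0.18 (SE 0.13, adjusted p = 0.331 by edgeR). *Pgam2*, its muscle form, was at 5.23, 6.75 and 2.85 CPM against 2.98, 2.69 and 2.60 CPM, with a log2 fold change of -0.84 (SE 0.31, adjusted p = 0.0854). No lower *Pgam1* mRNA was thus found under the ASO label, so the groups are named throughout by their labels. An mRNA count does not give the level of the protein. The study assayed PGAM1 protein apart from these libraries and reports that it was lower with the *Pgam* ASO. It also reports less Treg differentiation by flow cytometry with that ASO. The *Pgam1* count is itself uncertain, since 37.1% of its stretches of 31 bases also occur in *Pgam1-ps2*, and kallisto divides reads between such genes.

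*Foxp3*, the defining factor of Tregs, was at 282, 371 and 222 CPM under the Scramble label and at 89.7, 109 and 131 CPM under the ASO label. Every ASO library lay below every Scramble library, and *Foxp3* fell by 1.41 on the log2 scale (SE 0.20, adjusted p = 0.00567 by edgeR). Of its 31-base stretches, 26.4% also occur in other genes, mainly *Flicr*. The 6 markers listed for CD4 T cells summed to 3700, 3660 and 3740 CPM under Scramble and 4010, 4130 and 3930 CPM under ASO before TMM scaling, with *Il2ra* the most counted in each library. That sum hides opposite directions. *Il2ra* rose by 0.52 (SE 0.12, adjusted p = 0.0185), which was lost without Scramble replicate 1 (0.0725), ASO replicate 1 (0.0639) or ASO replicate 2 (0.0967). The other 5 were lower in every ASO library than in any Scramble library: besides *Foxp3*, *Cd4* (log2 fold change -0.21), *Cd3d* (-0.27), *Cd3e* (-0.37) and *Cd3g* (-0.34), of which the last 4 were not called (adjusted p = 0.0869, 0.0792, 0.052 and 0.0781). In bulk RNA, fewer cells of a type and less RNA per cell cannot be told apart, and this holds for *Foxp3* and for every *Zfp* gene below.

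Markers of other cells were low. The summed level of 5 B cell genes ran from 6.59 to 11.9 CPM (most counted *Cd79a*), of 5 myeloid genes from 1.79 to 3.60 CPM (*Lyz2*) and of 3 erythroid genes from 1.27 to 2.62 CPM (*Alas2*). The 3 NK cell genes summed to 53.1, 33.1 and 54.7 CPM under Scramble and to 27.4, 26.5 and 24.3 CPM under ASO, nearly all of it *Eomes*, which T cells also express, while *Klrb1c* was at 0 in every library. The 2 CD8 genes summed to 11.4, 13.9 and 10.8 CPM against 14.2, 10.7 and 15.8 CPM (*Cd8b1*). *Eomes* fell by 0.82 (SE 0.19, adjusted p = 0.0214), a call that was lost without Scramble replicate 1 (adjusted p = 0.0766), ASO replicate 1 (0.053) or ASO replicate 2 (0.0893). *Cd8a* rose by 1.12 (SE 0.29, adjusted p = 0.0286), which was lost without Scramble replicate 1 (0.0989) or ASO replicate 1 (0.1). *Cd8b1*, the more counted of the pair, went the other way with a log2 fold change of -0.20 (SE 0.18, adjusted p = 0.454) and overlapping labels, so the list has no common direction. The part of these cells in the results was not tested.

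Some sex-linked genes, looked at after their values were seen, also differed between the labels. *Xist*, made by female cells, was at 46.0, 56.8 and 45.4 CPM under Scramble and at 77.0, 87.5 and 105 CPM under ASO. The labels did not overlap, and *Xist* rose by 0.86 (SE 0.13, adjusted p = 0.00391 by edgeR). Of 4 Y-linked genes, *Kdm5d* fell by 0.55 (SE 0.13, adjusted p = 0.0223), which was lost without ASO replicate 1 (0.0775) or ASO replicate 2 (0.0937). *Ddx3y*, *Eif2s3y* and *Uty* had log2 fold changes of -0.27, -0.12 and -0.45 and were not called (adjusted p = 0.0803, 0.328 and 0.0592). Both *Xist* and Y-linked genes were counted in every library, so each held RNA from both sexes. Whether the *Zfp* values move with the share of female cells was not tested.

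Among the members, 26 of 214 (12.1%) were called lower under the ASO label and 1 (0.467%) was called higher. The background is the 9411 genes that pass the same minimum of 100 counts in every library, of which edgeR called 10% lower and 10.9% higher. Over all 14936 tested genes the shares were 9.15% lower and 8.03% higher. By this rule the share of members called lower was near the background, and is not a result about *Zfp* genes. Farther from the background were the share called higher and the middle of the distribution. The median log2 fold change of the members was -0.16 (quartiles -0.31 and -0.014, range -1.16 to 0.57), and 164 of 214 (76.6%) lay below 0. Genes with the same minimum had a median of 0.038 with 44.7% below 0, and all tested genes one of -0.0061. These counts and medians are a description, and no test was made of the members as a list.

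Rules without adjustment set the members farther apart from the background on the lower side too. In 72 members (33.6%) every ASO library lay below every Scramble library and in 3 (1.40%) every one lay above, where the background shares were 19.9% and 25.5%. At an unadjusted p under 0.05, edgeR had 62 members lower (29.0%) and 4 higher (1.87%), against 18% and 23.1% of the background. DESeq2 called 31 lower (14.5%) and 1 higher (0.467%), against 12.1% and 14.1%, and limma-voom called 26 lower (12.1%) and 1 higher (0.467%), against 10% and 10.6%.

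**Figure D1:**
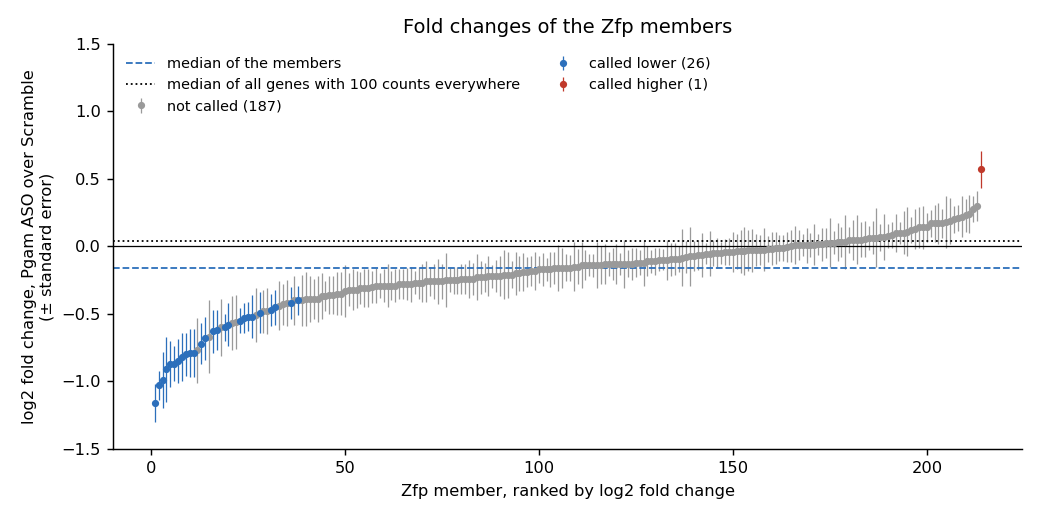
The 214 members ranked by log2 fold change, libraries labelled ASO over libraries labelled Scramble, each with its SE (3 libraries a label). Blue points were called lower (26), the red point higher (1) and grey points neither (187), and the median of the members, -0.16, lies below that of all genes with the same minimum, 0.038.

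The libraries differed within a label as well. Members made up 0.853%, 0.926% and 0.788% of all counts in Scramble replicates 1, 2 and 3, and 0.697%, 0.727% and 0.752% in ASO replicates 1, 2 and 3. Each share has a Wilson 95% interval that covers counting error only, such as 0.784 to 0.792% for Scramble replicate 3 and 0.748 to 0.756% for ASO replicate 3, the closest pair across the labels. All 3 Scramble shares thus exceeded all 3 ASO shares. Relative to each gene's mean over the libraries, the members had median log2 deviations of 0.088, 0.16 and 0.0014 under Scramble and -0.15, -0.069 and -0.044 under ASO. Scramble replicate 2 was the highest library for 111 members and ASO replicate 1 the lowest for 94, whereas Scramble replicate 3 lay near the middle. Among the 26 members called lower, Scramble replicate 2 was highest in 22 and ASO replicate 1 lowest in 17.

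**Figure D2:**
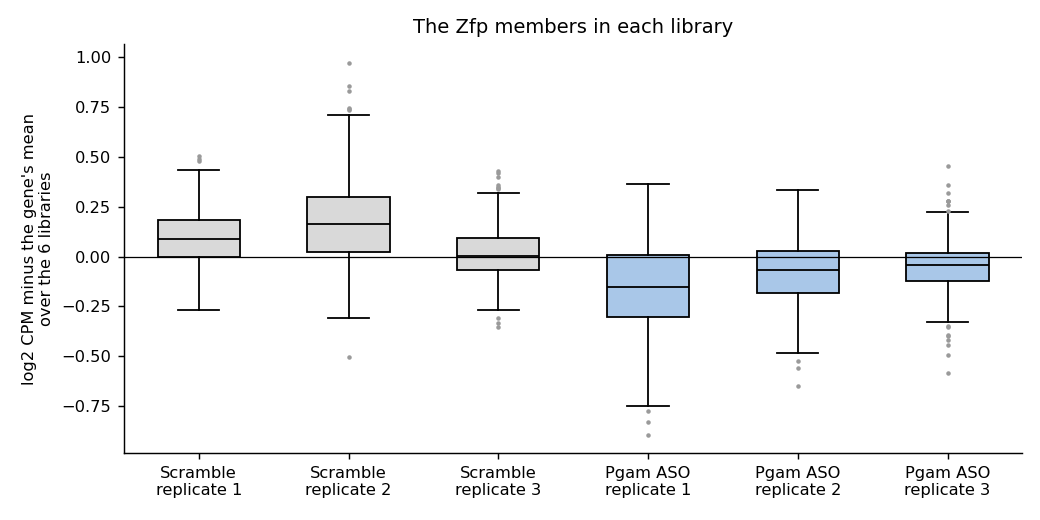
Log2 CPM of the 214 members in each library, minus the gene's mean over the 6 libraries. Boxes span the quartiles with the median as a line, whiskers reach 1.5 box lengths and points lie beyond them. Medians run from 0.16 in Scramble replicate 2 to -0.15 in ASO replicate 1.

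The number of calls rested on single libraries. Members called lower numbered 7 without Scramble replicate 1, 15 without Scramble replicate 2, 11 without ASO replicate 1 and 4 without ASO replicate 2. The background of lower calls moved as well, to 2.91%, 5.92%, 4.07% and 1.69%. Without Scramble replicate 3 or ASO replicate 3 there were 36 and 34 (background 12.7% and 12.4%). Members called higher numbered 0 without Scramble replicate 2, ASO replicate 1 or ASO replicate 2, and 3 without ASO replicate 3 (background 4.14%, 2.5%, 1.09% and 14.7%). The median fold change moved less, from -0.19 to -0.12 over the 6 libraries left out. Of the 27 called members, *Zfp281*, *Zfp318*, *Zfp36l1* and *Zfp467* kept their call under all 13 alternative fits, which are the 6 with a library left out and 7 with other settings.

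By mean CPM over all libraries, members ran from 6.84 to 339, with a median of 22.6. The 5 highest were *Zfp106* (339 CPM), *Zfp207* (282), *Zfp36l2* (273), *Zfp36l1* (176) and *Zfp445* (169). Longer transcripts yield more counts, so levels were compared between genes per kilobase of exons. On that scale *Zfp36l2* led with 77.3 CPM per kb, ahead of *Zfp36l1* with 59.0, *Zfp207* with 42.4 and *Zfp106* with 32.5, while *Zfp445* had 22.8 and ranked 10. At the other end, *Zfp874a* and *Zfp580* just met the minimum, with lowest counts of 100 and 101, and *Zfp971* and *Zfp994* just missed it, each with a lowest count of 96. Log2 fold changes across the members had a Spearman rho of 0.068 with mean log2 CPM and of -0.092 with exon length (n = 214 genes, which share libraries and are not independent).

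Proteins translated from the annotation were searched for a KRAB pattern and for C2H2 patterns. A KRAB pattern was found in 103 members and no such pattern in 111, and the number of C2H2 patterns ran to 36 in *Zfp142*. KRAB members had a median of 12 C2H2 patterns and the others 7. In 6 members no C2H2 pattern was found: *Zfp36*, *Zfp36l1* and *Zfp36l2*, each with 2 CCCH patterns, and *Zfp330*, *Zfp703* and *Zfp839*, with neither. The patterns fix residues and their spacing, so a domain that departs from them is missed. A missing match therefore does not show that a KRAB or C2H2 domain is absent, and the classes below are classes of pattern.

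KRAB members were called lower in 14 (13.6%) and higher in 1 (0.971%) of 103 cases (*Zfp850*, lost without Scramble replicate 2, ASO replicate 1 or ASO replicate 2), with a median log2 fold change of -0.22 and 86 below 0. Among the 111 others 12 (10.8%) were called lower and 0 higher, with a median of -0.12 and 78 below 0. Both shares of lower calls were near the 10% of all genes with the same minimum. For that count of 0 by edgeR, there were 3 higher at an unadjusted p under 0.05, 0 by DESeq2 and 0 by limma-voom. The difference between these classes was not tested. Without a library, KRAB members called lower numbered 1 (Scramble replicate 1), 7 (Scramble replicate 2), 5 (ASO replicate 1) and 0 (ASO replicate 2). In the same fits the others called lower numbered 6, 8, 6 and 4, where the background shares were 2.91%, 5.92%, 4.07% and 1.69%. Without Scramble replicate 3, 15 of 103 KRAB members and 21 of 111 others were lower (background 12.7%). Without ASO replicate 3 there were 16 and 18 (background 12.4%). Of the others 2 were called higher without ASO replicate 3. The median of KRAB members stayed between -0.26 and -0.19 over these fits, and that of the others between -0.16 and -0.080.

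By number of C2H2 patterns, the median log2 fold change was -0.074 for 25 members with 1 to 3, -0.12 for 40 with 4 to 7, -0.16 for 67 with 8 to 11 and -0.22 for 76 with 12 or more. This order did not hold in every fit: without Scramble replicate 3 the first 2 medians were -0.14 and -0.12. Without Scramble replicate 2 the order held, and the first median was -0.049. Across all 214 members the number of patterns and the log2 fold change had a Spearman rho of -0.15 and a Pearson r of -0.052, so a rank relation was weak and a linear one near 0. Members without a C2H2 pattern stood apart with a median of -0.56, which lies between the values of *Zfp36l2* (-0.63), a CCCH gene, and *Zfp839*. *Zfp839*, *Zfp330* and *Zfp703* had log2 fold changes of -0.48, 0.061 and 0.17 and were not called (adjusted p = 0.0602, 0.659 and 0.426).

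**Figure D3:**
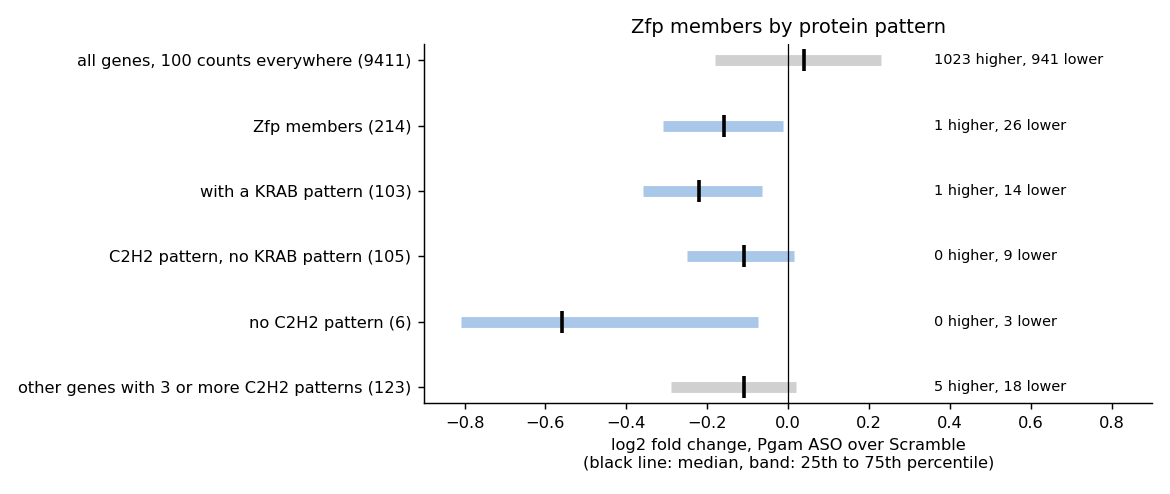
Log2 fold changes by class of protein, with the number of genes in brackets. Black lines are medians and bands run from the 25th to the 75th percentile, and the counts at the right are genes called higher and lower by edgeR. The medians of *Zfp* members with and without a KRAB pattern lie below 0, and that of all genes with the same minimum lies above 0.

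The CCCH members encode tristetraprolin (*Zfp36*) and its relatives, proteins that bind AU-rich elements of mRNAs and recruit the machinery that removes poly(A) tails. *Zfp36* (ENSMUSG00000044786, chromosome 7 from 28376784 to 28380253) was at 47.4, 58.9 and 38.2 CPM under Scramble and at 22.0, 26.6 and 30.7 CPM under ASO. *Zfp36l1* (ENSMUSG00000021127, chromosome 12 from 80107754 to 80113013) was at 214, 281 and 189 CPM against 127, 121 and 127 CPM. *Zfp36l2* (ENSMUSG00000045817, chromosome 17 from 84183931 to 84187947) was at 306, 425 and 262 CPM against 217, 198 and 228 CPM. In each gene all ASO libraries lay below all Scramble libraries (as in 19.9% of all genes with the same minimum), Scramble replicate 2 was the highest library, and the ASO libraries of *Zfp36l1* lay within a narrow band. All 3 were called lower, by 0.87 for *Zfp36* (SE 0.17, adjusted p = 0.0116), 0.87 for *Zfp36l1* (SE 0.13, adjusted p = 0.00391) and 0.63 for *Zfp36l2* (SE 0.16, adjusted p = 0.0293), by edgeR, and all 3 were also called lower by DESeq2 and by limma-voom. Of all genes with the same minimum edgeR called 10% lower and 10.9% higher. The fourth gene of that list, *Zfp36l3*, was too low to be tested.

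Leaving out a library changed parts of this. The call of *Zfp36* was lost without ASO replicate 2 (adjusted p = 0.069), and that of *Zfp36l2* without Scramble replicate 1 (0.0689), ASO replicate 1 (0.0774) or ASO replicate 2 (0.124), with its log2 fold change between -0.77 and -0.41. The call of *Zfp36l1* held without any single library, with a largest adjusted p of 0.0396. Its count is shared, however: 60.0% of its 31-base stretches also occur in other genes, and 53.2% in *Gm26669*, a gene with no row in the table, so how its reads were divided is unknown. The shares were 6.57% for *Zfp36* and 2.20% for *Zfp36l2*.

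Of 15 listed factors of lymphocytes and signalling, 13 were members, and no KRAB pattern was found in these. Of the 13, 4 (30.8%) were called lower and 0 higher, beside 10% and 10.9% of all genes with the same minimum. The edgeR count of 0 compares with 2 higher at an unadjusted p under 0.05, 0 by DESeq2 and 0 by limma-voom. Their median log2 fold change was -0.10, and -0.16 without Scramble replicate 3. *Zfp281* (ENSMUSG00000041483, chromosome 1 from 136624901 to 136630053), which binds GC-rich promoter sequence and acts when stem cells leave pluripotency, was at 150, 173 and 132 CPM under Scramble and at 73.4, 79.3 and 70.5 CPM under ASO. The ASO libraries lay close together and far below the lowest Scramble library. *Zfp281* fell by 1.03 (SE 0.11, adjusted p = 0.000768 by edgeR), with the smallest adjusted p of all members, and without single libraries the adjusted p reached 0.012.

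*Zfp831* (ENSMUSG00000050600, chromosome 2 from 174643534 to 174710832) was at 40.4, 60.7 and 32 CPM under Scramble and at 21.1, 22.8 and 23.1 CPM under ASO. *Zfp318* (ENSMUSG00000015597, chromosome 17 from 46383731 to 46420920), which in B cells is needed to make IgD beside IgM, was at 70.8, 65.5 and 60.2 CPM against 44.1, 46.5 and 43.6 CPM. *Zfp292* (ENSMUSG00000039967, chromosome 4 from 34803113 to 34882960), a large protein first described as an activator of the growth hormone gene, was at 162, 173 and 155 CPM against 94.1, 118 and 129 CPM. None of these overlapped between the labels, and the spread lay in the Scramble libraries for *Zfp831* and in the ASO libraries for *Zfp292*. They fell by 0.99 (*Zfp831*, SE 0.21, adjusted p = 0.0168), 0.55 (*Zfp318*, SE 0.092, adjusted p = 0.00615) and 0.52 (*Zfp292*, SE 0.11, adjusted p = 0.0175). The call of *Zfp831* was lost without ASO replicate 1 (0.0571) or ASO replicate 2 (0.0784) and that of *Zfp292* without Scramble replicate 1 (0.0647) or ASO replicate 2 (0.082), while *Zfp318* kept its call, with adjusted p up to 0.043. Among the 13, the count of lower calls was 2 without ASO replicate 2 and otherwise 3 to 5, and 1 of them was called higher without ASO replicate 3.

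The other 9 members of that list were not called. *Zfp217*, a partner of the CtBP and CoREST corepressors, was at 116, 132 and 107 CPM under Scramble and at 81.1, 88.9 and 105 CPM under ASO. It did not overlap and just missed the threshold, with a log2 fold change of -0.37 (SE 0.11, adjusted p = 0.0522). *Zfp263* stood at 40.2, 42.1 and 40.1 CPM against 53.7, 49.8 and 45.0 CPM, and *Zfp131*, which has a BTB domain, at 51.0, 46.7 and 51.8 CPM against 62.4, 58.4 and 52.5 CPM. In both the ASO libraries were above the Scramble libraries, with log2 fold changes of 0.28 (SE 0.096, adjusted p = 0.0697) and 0.21 (SE 0.096, adjusted p = 0.143). The rest lay between -0.25 for *Zfp219* and 0.17 for *Zfp143*: *Zfp148*, the closest relative of *Zfp281*, at -0.093, *Zfp91*, a ubiquitin ligase of the NF-κB pathway, at -0.10, *Zfp384* at -0.10, and *Zfp335*, needed for T cells to mature in the thymus, at -0.050. Of the listed genes outside the members, *Zfp683* (Hobit, a factor of tissue-resident T cells) was below 1 CPM in every library and *Zfp161* had no row under that symbol.

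Of 9 members that act on RNA, ribosomes or the spindle, 0 were called in either direction by edgeR, with 0 at an unadjusted p under 0.05 and 0 by DESeq2 or limma-voom. Among all genes with the same minimum edgeR called 10% lower and 10.9% higher. The median log2 fold change was 0.0085 (-0.019 without Scramble replicate 2, -0.014 without ASO replicate 1, and up to 0.058 without ASO replicate 2). *Zfp106*, an RNA-binding protein needed by motor neurons, was at 352, 325 and 337 CPM under Scramble and 352, 348 and 320 CPM under ASO. *Zfp207*, which loads a checkpoint protein onto kinetochores, was at 291, 291 and 281 CPM against 270, 292 and 269 CPM. In both the labels overlapped, with log2 fold changes of 0.0085 (SE 0.080) and -0.055 (SE 0.078). *Zfp598*, the ubiquitin ligase that marks collided ribosomes, was at 105, 89.9 and 103 CPM against 128, 106 and 102 CPM (log2 fold change 0.17, SE 0.11).

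The others of that group had log2 fold changes of -0.018 for *Zfp622*, which acts in the making of the large ribosomal subunit, -0.13 for *Zfp346*, which binds double-stranded RNA, -0.14 for *Zfp638*, which acts in splicing and in silencing of unintegrated retroviral DNA, 0.14 for *Zfp326*, a subunit of a complex that joins transcription to splicing, 0.10 for *Zfp830*, a splicing factor, and 0.10 for *Zfp706*. Of the 2 listed genes below the minimum, *Zfp385a* had a log2 fold change of 0.023, and *Zfp593* one of 1.15 (SE 0.43, adjusted p = 0.0888) at levels of 0.496 to 1.93 CPM, with 71.5% of its stretches shared with *E130218I03Rik*.

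Of 8 listed KRAB proteins with a described target at imprinted genes or retroelements, 6 were members, of which 1 was called lower and 0 higher, beside 10% and 10.9% of all genes with the same minimum, with 0 higher at an unadjusted p under 0.05, by DESeq2 and by limma-voom. *Zfp445*, which with ZFP57 keeps methylation at imprinted genes, was at 180, 188 and 162 CPM under Scramble and at 158, 159 and 167 CPM under ASO. *Zfp809*, which silences murine leukaemia proviruses through their primer binding site, was at 28.4, 30.0 and 24.3 CPM against 25.7, 21.8 and 23.5 CPM. The labels overlapped in both, with log2 fold changes of -0.13 (SE 0.084, adjusted p = 0.308) and -0.22 (SE 0.12, adjusted p = 0.221). *Zfp568*, a repressor of a placental *Igf2* promoter, had one of 0.0017, *Zfp932* one of -0.14 with 44.2% of its stretches shared with *Gm15446*, and *Zfp961* one of -0.096. *Zfp57* and *Zfp708* were too low to be tested. Of the stretches of *Zfp708*, 95.4% also occur in *Gm28557*, so its count is uncertain. The called member was *Zfp738*, at 27.0, 32.7 and 20.7 CPM against 12.9, 15.5 and 17.3 CPM. It did not overlap and fell by 0.82 (SE 0.18, adjusted p = 0.0166 by edgeR), which was lost without Scramble replicate 1 (0.0629), ASO replicate 1 (0.0571) or ASO replicate 2 (0.0842).

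The largest fall of all members was that of *Zfp467* (ENSMUSG00000068551, chromosome 6 from 48427697 to 48445825), a C2H2 protein without a KRAB pattern that has been studied in the choice between bone-forming and fat-storing cells. It was at 65.8, 83.7 and 63.4 CPM under Scramble and at 26.5, 32 and 37.0 CPM under ASO. The highest ASO library was thus well below the lowest Scramble library, and *Zfp467* fell by 1.16 (SE 0.14, adjusted p = 0.00155 by edgeR). Without single libraries its adjusted p reached 0.0197. *Zfp467* and *Zfp281* were the members called with a log2 fold change of 1 or more in size.

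The rest of the 12 called members with the largest falls were KRAB genes and *Zfp358*, which has C2H2 patterns and no KRAB pattern. *Zfp395*, without a KRAB pattern, had a log2 fold change of -0.77 (SE 0.24) within their range and was not called (adjusted p = 0.0615). *Zfp169* was at 16.4, 21.2 and 11.6 CPM under Scramble and at 6.83, 8.60 and 10.8 CPM under ASO, so that its closest libraries nearly met. *Zfp949* was at 17.3, 19.5 and 15.1 CPM against 7.89, 10.5 and 10.4 CPM, and *Zfp317* at 37.3, 43.6 and 31.4 CPM against 20, 21.9 and 26.4 CPM. *Zfp169*, *Zfp949*, *Zfp113*, *Zfp874a*, *Zfp358* and *Zfp317* fell by 0.91, 0.85, 0.80, 0.79, 0.79 and 0.72 (adjusted p = 0.0299, 0.0107, 0.0116, 0.0197, 0.0212 and 0.0137 by edgeR). None of them overlapped between the labels.

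Every one of these 6 calls was lost without Scramble replicate 1 and without ASO replicate 2. The adjusted p without them was 0.0888 and 0.120 for *Zfp169*, 0.0502 and 0.051 for *Zfp949*, 0.0517 and 0.0706 for *Zfp113*, 0.0729 and 0.0884 for *Zfp874a*, 0.058 and 0.107 for *Zfp358*, and 0.0541 and 0.0827 for *Zfp317*. Leaving out Scramble replicate 2 or ASO replicate 1 also ended those of *Zfp169* (0.0831 and 0.0961), *Zfp874a* (0.0557 and 0.0674) and *Zfp358* (0.055 and 0.0691).

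The member called higher was *Zfp850* (ENSMUSG00000096916, chromosome 7 from 27984854 to 28014115), a KRAB gene. It was at 19.1, 13.7 and 15.4 CPM under Scramble and at 25, 24.2 and 22.1 CPM under ASO. All ASO libraries lay above all Scramble libraries, and *Zfp850* rose by 0.57 (SE 0.14, adjusted p = 0.0263 by edgeR). Its call was lost without Scramble replicate 2 (0.068), ASO replicate 1 (0.0825) or ASO replicate 2 (0.112).

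**Figure D4:**
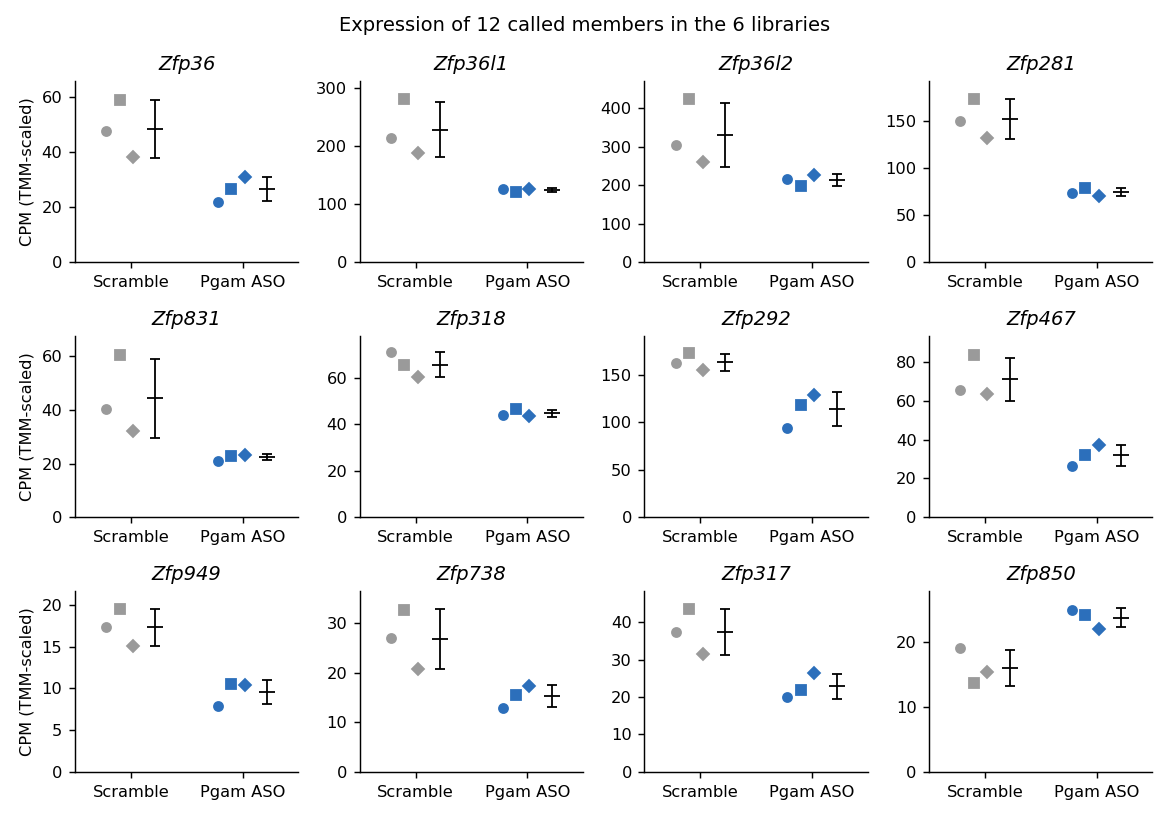
CPM of 12 called members in every library, grey for the Scramble label and blue for the ASO label, with circles, squares and diamonds for replicates 1, 2 and 3. Black marks are the mean with its standard deviation over 3 libraries. The labels do not overlap in any of the 12, and *Zfp850* is the only one with higher values under ASO. Of all genes with the same minimum, 19.9% have every ASO library below every Scramble library and 25.5% have every one above. *Zfp369* is not shown: it was called lower by 0.58 (adjusted p = 0.0387 by edgeR) although its labels overlapped.

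By position, members were most frequent on chromosome 7 with 49, and their median log2 fold change was -0.10 (-0.063 without Scramble replicate 2) with 36 below 0. The 29 members of chromosome 17 had a median of -0.26 with 27 below 0, the 17 of chromosome 13 one of -0.28 with 15 below 0, and the 5 of chromosome 12, *Zfp36l1* among them, one of -0.47 with 4 below 0. Of all genes with the same minimum 44.7% lay below 0. Members with gaps of at most 500000 bases were joined into groups, and 9 groups held 5 or more. On chromosome 17, from 21008903 to 22361400, lay 12 members, all with a KRAB pattern. All 12 had log2 fold changes below 0, from -0.68 to -0.15 with a median of -0.33, and *Zfp52*, *Zfp760*, *Zfp948* and *Zfp983* were called lower. On chromosome 13, from 67312998 to 67729173, lay 9 members, again all with a KRAB pattern, all below 0 from -0.82 to -0.025 with a median of -0.37. *Zfp729a*, *Zfp738* and *Zfp874a* of that group were called lower. These are 4 of 12 and 3 of 9 members, beside 10% of all genes with the same minimum.

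These neighbours can be set beside the 10 members of chromosome 17 between 32765496 and 33631779, of which 9 lay below 0 with a median of -0.16 (-0.069 without ASO replicate 1). None of those was called by edgeR with all 6 libraries. There was 1 lower call without Scramble replicate 3 and 1 without ASO replicate 3 (background 12.7% and 12.4%). Among the other groups, 5 members on chromosome 9 from 20345136 had a median of -0.30 with all 5 below 0, and 5 on chromosome 7 from 12478293 one of -0.18 (-0.12 without ASO replicate 2) with all 5 below 0. Further along chromosome 7, the medians were -0.17 for 6 members from 27731389 (4 below 0; -0.056 without ASO replicate 1), -0.029 for 9 from 29768552 (5 below 0) and -0.040 for 8 from 127233061 (5 below 0). On chromosome 6, 8 members from 47835661 had a median of -0.052 (6 below 0). With libraries left out, these last 3 medians ran from -0.053 (Scramble replicate 3) to -0.0081 (ASO replicate 3), from -0.12 (ASO replicate 3) to 0.034 (Scramble replicate 2) and from -0.092 (Scramble replicate 3) to 0.011 (Scramble replicate 2), so their direction is not settled where it turned. EdgeR called 1 member lower in each of the groups from 12478293, 27731389, 29768552 and 47835661, and 1 higher in that from 27731389. The lower calls from 12478293 and 29768552 were lost without Scramble replicate 1 or 2 or ASO replicate 1 or 2. That from 12478293, *Zfp606*, was also lost without Scramble replicate 3 (adjusted p = 0.0524 by edgeR). The lower call from 27731389 was lost without ASO replicate 2, and the higher call without Scramble replicate 2 or ASO replicate 1 or 2. The group from 127233061 had 1 lower call without Scramble replicate 3 and 1 without ASO replicate 3. That on chromosome 9 had 1 without Scramble replicate 3. No test was made of the groups, and close relatives share sequence. In the chromosome 17 group from 21008903, *Zfp52* was at 62.4, 54.4 and 64.9 CPM under Scramble and at 41.8, 37.1 and 41.4 CPM under ASO, and *Zfp948* at 24.1, 24.0 and 26.0 CPM against 17.0, 16.9 and 17.5 CPM. Here Scramble replicate 2 was not the highest library, unlike in most members. *Zfp52* fell by 0.60 (SE 0.10, adjusted p = 0.00641) and *Zfp948* by 0.53 (SE 0.11, adjusted p = 0.0131). *Zfp52* lost its call without ASO replicate 2 (0.0534) and *Zfp948* without Scramble replicate 1 (0.056) or ASO replicate 2 (0.0765). The counts of lower calls in this group and in that of chromosome 13 were 1 and 0 without Scramble replicate 1, 3 and 1 without Scramble replicate 2, 2 and 0 without ASO replicate 1, and 0 and 0 without ASO replicate 2, where the background shares were 2.91%, 5.92%, 4.07% and 1.69%.

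Because duplicated genes share sequence, each member's stretches of 31 bases were compared with those of all other genes. Under 10% were shared in 161 members, of which 21 (13%) were called lower and 1 higher with a median of -0.16. In the 53 members that share more, 5 (9.43%) were called lower and 0 higher with a median of -0.15 (-0.10 without ASO replicate 1), and 0 were higher at an unadjusted p under 0.05, by DESeq2 and by limma-voom. Of all genes with the same minimum 10% were called lower and 10.9% higher, and both shares of lower calls were near that. The called members with the most sharing after *Zfp36l1* were *Zfp729a* (27.1%) and *Zfp738* (24.1%), each the other's main partner, *Zfp983* (16.0%, and 7.56% with *Gm10509*, its main partner) and *Zfp874a* (13.3%, and 10% with *Zfp874b*). *Zfp729a* was at 20.7, 27.2 and 24.0 CPM under Scramble and at 14.4, 17.5 and 19.3 CPM under ASO. It fell by 0.49 (SE 0.15, adjusted p = 0.0474), lost without any library other than ASO replicate 3 (0.0729, 0.139 and 0.0637 without Scramble replicates 1, 2 and 3, and 0.152 and 0.142 without ASO replicates 1 and 2). *Zfp983* fell by 0.45 (SE 0.13, adjusted p = 0.0443), lost likewise (0.134, 0.0715, 0.0753, 0.146 and 0.141). Lower calls among the 161 and the 53 numbered 6 and 1 without Scramble replicate 1, 13 and 2 without Scramble replicate 2, 10 and 1 without ASO replicate 1, 3 and 1 without ASO replicate 2, and 32 and 4 without Scramble replicate 3. Called genes that share sequence with each other are not independent observations.

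The promoters were examined because most members had log2 fold changes below 0. RefSeq windows on GRCm38.p6 were found by symbol for 177 of the 214 members, and the 250 bases before the start were searched on both strands for an E-box (CACGTG), an ETS motif (CCGGAA) and a GC box (GGGCGG). An ETS match can share 2 letters with a GC box match. Of 215 member windows, 4.65% held the E-box, 28.8% the ETS motif and 46.0% the GC box, against 6.02%, 12% and 32.7% of all 32851 windows. Members had a median of 13 CG pairs in the window and all genes 6, so their base composition differs too. Between members called lower (25 windows) and not called (189) the shares were 4% and 4.76% for the E-box, 36% and 28.0% for the ETS motif and 44.0% and 46.6% for the GC box.

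A further pattern was noticed on reading the windows of the called members and is therefore no independent observation: ACTACA, then any 2 bases, then TCCCA, on either strand. It resembles the element known to be bound by ZNF143 and THAP11, and its CA end can share letters with an E-box. It was found in 1.35% of all windows, in 10.7% of member windows, in 17.8% of those of KRAB members and in 4.39% of those of the others. By gene, it was held by 7 of the 23 members called lower that have a window (30.4%), by 16 of 153 not called (10.5%) and by 419 of 27025 genes in all (1.55%). The 7 are *Zfp738*, *Zfp729a*, *Zfp874a*, *Zfp317*, *Zfp606*, *Zfp260* and *Zfp358*. A match is a description of letters and not a bound site, and *Zfp143* itself, at 27.3, 28.1 and 31 CPM against 30.5, 32.6 and 34.0 CPM, was not called (log2 fold change 0.17, SE 0.10, adjusted p = 0.270).

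The windows of 5 of these genes are shown from 5′ to 3′ with the pattern in capitals, since they let the reader see where it lies. They are chr13:67683513-67683762 (minus strand) for *Zfp738*, chr13:67637782-67638031 (minus) for *Zfp729a*, chr13:67451625-67451874 (minus) for *Zfp874a*, chr9:19621841-19622090 (plus) for *Zfp317* and chr7:12478055-12478304 (plus) for *Zfp606*. The pattern begins 57, 35, 34 and 24 bases before the start in *Zfp738*, *Zfp729a*, *Zfp874a* and *Zfp606*. It occurs 2 times in *Zfp317*, 224 and 180 bases before the start, in the first of 2 windows listed for that gene. *Zfp738* and *Zfp729a*, neighbours on chromosome 13, share long stretches of their windows, so their matches are not separate events.
Zfp738: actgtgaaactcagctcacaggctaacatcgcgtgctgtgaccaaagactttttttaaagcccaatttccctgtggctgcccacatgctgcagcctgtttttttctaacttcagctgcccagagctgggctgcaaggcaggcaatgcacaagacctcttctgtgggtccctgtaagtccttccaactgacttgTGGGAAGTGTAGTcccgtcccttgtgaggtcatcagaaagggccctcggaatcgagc
Zfp729a: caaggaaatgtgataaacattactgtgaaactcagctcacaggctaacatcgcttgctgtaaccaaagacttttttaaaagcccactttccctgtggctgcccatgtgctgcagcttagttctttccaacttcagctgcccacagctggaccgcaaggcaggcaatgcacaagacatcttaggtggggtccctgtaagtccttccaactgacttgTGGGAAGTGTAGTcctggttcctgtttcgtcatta
Zfp874a: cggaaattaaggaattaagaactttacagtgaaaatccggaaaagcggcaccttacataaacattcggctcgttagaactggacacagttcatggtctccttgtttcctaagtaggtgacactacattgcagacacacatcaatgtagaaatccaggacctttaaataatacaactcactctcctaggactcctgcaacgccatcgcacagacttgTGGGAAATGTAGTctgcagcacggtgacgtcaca
Zfp317: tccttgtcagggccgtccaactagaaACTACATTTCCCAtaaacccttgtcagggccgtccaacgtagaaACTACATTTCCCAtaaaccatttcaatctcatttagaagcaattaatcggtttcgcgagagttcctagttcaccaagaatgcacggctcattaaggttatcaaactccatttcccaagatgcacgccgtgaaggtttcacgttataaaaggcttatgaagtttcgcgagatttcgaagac
Zfp606: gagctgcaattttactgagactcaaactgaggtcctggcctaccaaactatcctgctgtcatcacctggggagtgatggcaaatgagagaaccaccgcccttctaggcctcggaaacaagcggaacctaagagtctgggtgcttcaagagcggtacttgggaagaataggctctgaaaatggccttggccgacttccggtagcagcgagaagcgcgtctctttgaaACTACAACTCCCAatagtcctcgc

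For contrast, the window of *Zfp281*, the member with the smallest adjusted p, holds no such pattern. It lies at chr1:136624651-136624900 (plus strand) and has 4 GC boxes on the opposite strand, shown in capitals, and 19 CG pairs.
Zfp281: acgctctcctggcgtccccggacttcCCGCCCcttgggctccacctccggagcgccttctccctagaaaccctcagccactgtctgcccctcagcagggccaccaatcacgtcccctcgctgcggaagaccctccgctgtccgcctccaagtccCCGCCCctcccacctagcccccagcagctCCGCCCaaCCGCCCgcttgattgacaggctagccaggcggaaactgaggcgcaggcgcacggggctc

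KRAB proteins act through corepressors, and 27 genes of that machinery were listed and tested. Of these 6 were called higher and 2 lower (22.2% and 7.41%), beside 10.9% and 10% of all genes with at least 100 counts in every library, a minimum that all 27 meet. Their median log2 fold change was 0.17. *Trim28*, the protein that KRAB domains bind, was at 432, 376 and 429 CPM under Scramble and at 525, 486 and 460 CPM under ASO. *Setdb1*, the methyltransferase it recruits, was at 100, 99.6 and 104 CPM against 106, 109 and 110 CPM. In both the ASO libraries lay above the Scramble libraries, with log2 fold changes of 0.25 (SE 0.090, adjusted p = 0.0781) and 0.097 (SE 0.075, adjusted p = 0.388), and neither was called. The genes called higher were *Dnmt1* (0.32, adjusted p = 0.0276) and *Uhrf1* (0.38, adjusted p = 0.0386), which copy DNA methylation at replication, *Cbx3* (0.32, adjusted p = 0.0469) and *Cbx5* (0.31, adjusted p = 0.0472), which encode HP1 proteins, *Mbd3* (0.52, adjusted p = 0.0283) of the NuRD complex, and *Morc3* (0.32, adjusted p = 0.0462).

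All 6 of these calls were lost without Scramble replicate 1 and without ASO replicate 2. The adjusted p values were then 0.0927 and 0.116 for *Dnmt1*, 0.106 and 0.133 for *Uhrf1*, 0.136 and 0.192 for *Cbx3*, 0.144 and 0.189 for *Cbx5*, 0.102 and 0.0920 for *Mbd3*, and 0.162 and 0.193 for *Morc3*. Without Scramble replicate 2 or ASO replicate 1 the calls of *Dnmt1* (0.0556 and 0.0897), *Uhrf1* (0.0683 and 0.118), *Cbx3* (0.115 and 0.0957), *Cbx5* (0.109 and 0.121) and *Mbd3* (0.0591 and 0.0957) were lost, and that of *Morc3* was lost without Scramble replicate 3 (0.0788) or ASO replicate 3 (0.0750). Without Scramble replicate 1, Scramble replicate 2, ASO replicate 1 and ASO replicate 2, the list had 0, 1, 2 and 0 genes called higher. The background shares were 1.66%, 4.14%, 2.5% and 1.09%. Lower calls in these fits numbered 1, 2, 1 and 1 (background 2.91%, 5.92%, 4.07% and 1.69%). Without Scramble replicate 3 there were 7 higher and 4 lower (background 15.7% and 12.7%). Without ASO replicate 3 there were 7 and 2 (14.7% and 12.4%). Of the 31-base stretches, 24.2% in *Uhrf1* and 10% in *Cbx3* also occur in other genes.

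The largest change on the list was a fall. *Resf1*, a retroelement silencing factor that binds SETDB1, was at 82.8, 107 and 68.2 CPM under Scramble and at 30.1, 37.0 and 42.2 CPM under ASO. The labels did not overlap, and *Resf1* fell by 1.24 (SE 0.17, adjusted p = 0.00366 by edgeR), a call that held without any single library, with adjusted p up to 0.0294. *Atrx*, a chromatin remodeller of heterochromatin, was at 536, 535 and 547 CPM against 436, 466 and 433 CPM. It fell by 0.28 (SE 0.075, adjusted p = 0.0340), which was lost without Scramble replicate 1 (0.116), ASO replicate 1 (0.119), ASO replicate 2 (0.107) or ASO replicate 3 (0.0742).

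**Figure D5:**
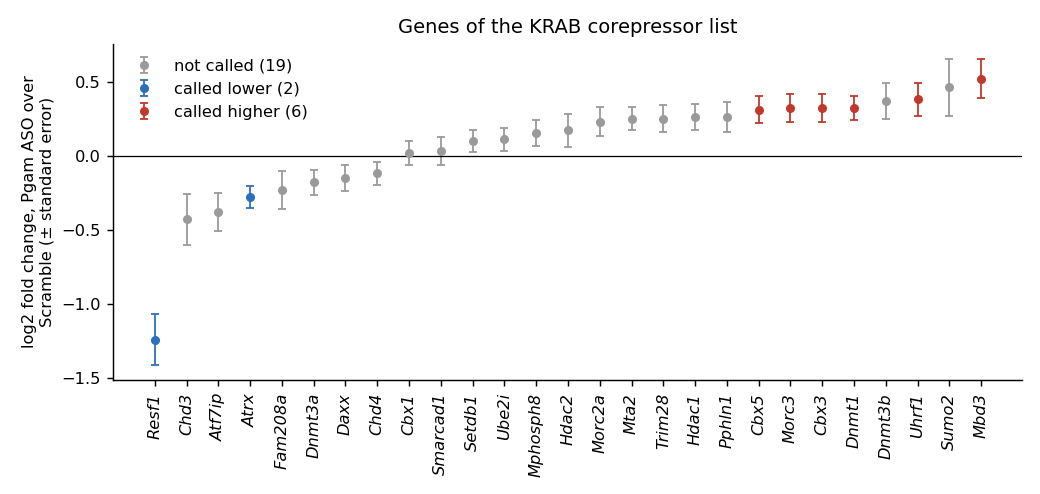
Log2 fold changes with SE (3 libraries a label) of the 27 corepressor genes, in order. Genes called higher are red (6), lower blue (2) and not called grey (19), and *Resf1* lies farthest from 0 at -1.24.

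All 324 tested *Zfp* genes, with no minimum beyond edgeR's filter, had 29 called lower (8.95%) and 3 higher (0.926%), beside 9.15% and 8.03% of all 14936 tested genes, so the share of lower calls was at the background. Their median was -0.18, beside -0.0061. Lower calls among them numbered 8, 16, 11 and 4 without Scramble replicate 1, Scramble replicate 2, ASO replicate 1 and ASO replicate 2, and higher calls 1, 0, 0 and 0, while 6 were higher without ASO replicate 3. The genes called higher besides *Zfp850* were *Zfp334* (0.225, 0.486 and 0.991 CPM under Scramble, 3.29, 1.67 and 1.24 CPM under ASO) and *Zfp599* (4.16, 3.56 and 5.02 CPM, then 7.45, 7.70 and 5.86 CPM). They did not overlap and rose by 1.87 (SE 0.55, adjusted p = 0.0428) and 0.72 (SE 0.22, adjusted p = 0.0457). Both calls were lost without Scramble replicate 1 (0.134 and 0.138), Scramble replicate 2 (0.108 and 0.129), ASO replicate 1 (0.174 and 0.131) or ASO replicate 2 (0.115 and 0.170). *Zfp874b*, the relative of *Zfp874a*, fell by 1.14 (SE 0.31, adjusted p = 0.0330), which was lost without the same libraries (0.0913, 0.0968, 0.105 and 0.132). A minimum in every library also leaves out 21 *Zfp* genes with a mean of at least 100 counts that fall short in some library, under either label or both. Of these *Zfp607b* (log2 fold change -0.88, adjusted p = 0.0168) and *Zfp420* (-0.84, adjusted p = 0.0450) were called lower and 0 higher, with 1 higher at an unadjusted p under 0.05 and 0 by DESeq2 and limma-voom, and their median was -0.27. *Zfp607b* lost its call without ASO replicate 1 (0.0572) or ASO replicate 2 (0.0812), and *Zfp420* without any library other than Scramble replicate 3 (0.139 and 0.143 without Scramble replicates 1 and 2, 0.101, 0.137 and 0.0809 without ASO replicates 1, 2 and 3).

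Medians below 0 were also found outside the name *Zfp*. Of 123 other genes with 3 or more C2H2 patterns and the same minimum of counts, 18 were called lower (14.6%) and 5 higher (4.07%), beside 10% and 10.9% of all genes with that minimum, with a median of -0.11 (-0.060 without Scramble replicate 2) and 88 below 0. The 5 were *Egr2* (0.85), *Egr3* (0.48), *Gfi1* (0.88), *Hic1* (0.90) and *Repin1* (0.43), of which *Egr2* and *Egr3* are induced through the T cell receptor. The 18 called lower include *Ikzf3*, with the largest fall (-2.54), and *Ikzf2* (-0.57). They also include every gene named below as called lower in the *Zbtb*, *Zscan* and *Zkscan*, *Klf* and KRAB-pattern groups. These groups thus overlap with the 123 genes and are not separate observations. The 32 *Zbtb* genes, whose proteins pair C2H2 fingers with a BTB domain, had a median of -0.075 (-0.030 without Scramble replicate 2, -0.13 without Scramble replicate 3) with *Zbtb1* (-0.56) and *Zbtb20* (-1.31) called lower. The 15 *Zscan* and *Zkscan* genes had one of -0.28 with 4 called lower, *Zkscan3* (-0.31), *Zkscan5* (-0.52), *Zscan26* (-0.59) and *Zscan29* (-0.55). The 8 *Klf* genes had one of -0.29 with *Klf11* (-0.76) and *Klf13* (-0.67) called lower. The 3 families are given here with that minimum, and over all tested genes the medians were -0.11 for 39 *Zbtb*, -0.24 for 18 *Zscan* and *Zkscan* and -0.51 for 12 *Klf* genes, with 3, 5 and 3 called lower. In these 3 families 0 were called higher by edgeR, DESeq2 or limma-voom, and 1, 0 and 1 were higher at an unadjusted p under 0.05. The 19 KRAB-pattern genes not named *Zfp* had a median of -0.14, which moved to -0.028 without Scramble replicate 2 and to -0.22 without Scramble replicate 1, with *2610044O15Rik8* (-0.50) called lower and 0 higher, and 1 was higher at an unadjusted p under 0.05, 0 by DESeq2 and 0 by limma-voom. Without Scramble replicate 1 or 2 or ASO replicate 1 or 2 that call was lost, and 3 and 4 genes were lower without Scramble replicate 3 and ASO replicate 3. These relatives were named after their values were seen. Lower calls among the 123 genes numbered 3, 11, 6 and 1 without Scramble replicate 1, Scramble replicate 2, ASO replicate 1 and ASO replicate 2, and higher calls 2 without any of these, 3 without Scramble replicate 3 and 8 without ASO replicate 3. In the *Zscan* and *Zkscan* genes lower calls numbered 2 without Scramble replicate 2 and 0 without Scramble replicate 1, ASO replicate 1 or ASO replicate 2. The *Klf* genes had 0 lower without Scramble replicate 1 or ASO replicate 2, 1 without Scramble replicate 2 or ASO replicate 1, and 1 higher without ASO replicate 3, and the *Zbtb* genes ran from 1 lower without ASO replicate 2 to 4 without Scramble replicate 3 or ASO replicate 3. Differences between the members and these families were not tested.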

How the data were processed

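PolyA RNA gave 6 libraries, 3 labelled Scramble and 3 labelled ASO. The deposited table holds kallisto's estimated counts per gene (expected_counts), as whole numbers that the authors did not normalize. The submitters' processing notes name GRCm38. The kallisto version and annotation are not given in the sources used here. Symbols were matched for 52073 of 56748 genes, positions and proteins came from GENCODE M21, and promoters from RefSeq on GRCm38.p6.

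The whole table was analysed in R 4.3.3 with edgeR 4.0.16: filterByExpr, TMM, the robust quasi-likelihood test, two-sided, and Benjamini-Hochberg adjustment over 14936 genes. The procedure was tested on simulated data. Alternatives were DESeq2 1.42.0, limma-voom (limma 3.58.1), RLE size factors, library size alone, other filters, a replicate block, libraries left out in turn, stricter thresholds and other member rules. Members and lists were chosen with earlier results of these data known.

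Named genes are the 12 largest called changes in each direction without overlap, every member of the role lists, the 5 highest members, those nearest the minimum, and, of the corepressor list, all called genes, *Trim28* and *Setdb1*. Others (the sex-linked genes, *Eomes*, *Cd8a*, *Il2ra* and other CD4 T cell markers, *Zfp369*, *Zfp395*, the members and relatives named by position, shared sequence or pattern, *Zfp142*, genes of related families and other *Zfp* genes below the minimum) were named after their values were seen.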

Additional observations from a re-analysis of the deposited data

How the results depend on the processing

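The median log2 fold change of the members was below 0 in every fit, from -0.20 to -0.12, and its direction held with RLE size factors and with library size alone. The 26 lower calls became 5 at an adjusted p under 0.01 (background 2.16%), 2 at a log2 fold change of 1 or more in size (1.41%) and 15 with a minimum of 300 counts (fewer genes), and ran from 4 to 36 with libraries left out. The 1 higher call became 2 with no filter on low counts (background 16.6%), 0 at an adjusted p under 0.01 (1.25%), 0 at a log2 fold change of 1 or more in size (0.414%), 3 over every tested *Zfp* gene and 0 with a minimum of 300 counts, and ran from 0 to 3 with libraries left out. The median ran from -0.19 to -0.12 with libraries left out. With at least 100 counts required of all genes, 35 members were lower and 1 higher, and the background became 13.1% and 9.55%. The 8 called corepressor genes became 5 with library size alone, 5 with that minimum for all genes and 2 with the replicate block, and ran from 1 to 11 with libraries left out; the cause was not tested. Setting aside members that share 10% or more of their stretches, chosen after seeing the data, left 21 lower and 1 higher.

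With replicate number as a block (replicate block), 19 members were lower and 1 higher, beside 5.67% and 4.04% of the background, and the median was -0.16. Nothing says that equal numbers pair. After each label's mean was taken out, libraries of equal number had a Pearson r across genes of 0.0534, -0.034 and -0.237. Those of unequal number had one from -0.254 to 0.28. Taking out a mean of 3 libraries ties the deviations within a label to each other, so these values cannot decide whether libraries pair.

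Depth limits low members: the lowest count of a member was 100, and genes under the minimum are not among the members. With 3 libraries a label, most single calls hang on which library is used, and *Zfp* genes differ in how well reads can be assigned.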
